A study of Mus musculus with 3 samples.

Results

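The 10 genes described here encode the cannabinoid receptors, a receptor partner and the enzymes that make and break down the main endocannabinoid lipids. They were chosen by name, as Cnr1, Cnr2, Cnrip1, Dagla, Daglb, Mgll, Faah, Napepld, Abhd6 and Abhd12, and all 10 were found among the 46073 Ensembl gene identifiers of the RNA table. The tissue was medial prefrontal cortex (mPFC) of untreated C57BL/6 mice aged 3 months, with no second strain, genotype or treatment. The series has 1 sample for RNA, 1 for DNA enriched with an antibody against methylcytosine and 1 for input DNA, and the design text gives 3 replicates for RNA. The RNA table has 2 value columns that were equal in 46073 of 46073 rows, so each gene has 1 value. The spread between mice could not be computed, so levels are given without an error and genes are compared without a test. The DNA data were not analysed here.

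Endocannabinoids are lipid messengers made on demand from membrane phospholipids. In cortex 2-arachidonoylglycerol (2-AG) is known to be made in the postsynaptic neuron, to cross the synapse backwards and to act on the receptor CB1 at the axon terminal, where it reduces transmitter release. Anandamide, an N-acylethanolamine, is a second messenger of this kind with its own enzymes. Each lipid is removed by hydrolysis, which releases arachidonic acid.

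RNA levels of the 10 genes spanned from 0.0877 to 179 FPKM, a unit that counts fragments per length of transcript and per depth of the library. Abhd12 was highest at 179 FPKM, followed by Mgll at 58.8, Cnrip1 at 39.8 and Faah at 32.1 FPKM. Cnr1, Abhd6 and Dagla formed a middle group at 22.2, 19.9 and 18.7 FPKM. Daglb at 6.70 and Napepld at 4.68 FPKM were lower, and Cnr2 was far below the rest at 0.0877 FPKM. With detection set at 1 FPKM or more, 9 of 10 members were detected. The share was 58.6% among all protein-coding rows and 31.5% among all rows. The median of the 10 genes was 21.0 FPKM, beside 2.58 FPKM over the 20631 protein-coding rows. Set among those rows, Abhd12 lay at the 98.7th percentile, Mgll at the 94.8th, Cnr1 at the 84.5th, Napepld at the 58.0th and Cnr2 at the 27.7th. These percentiles describe 1 table of genes, and genes are not replicates.

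**Figure D1:**
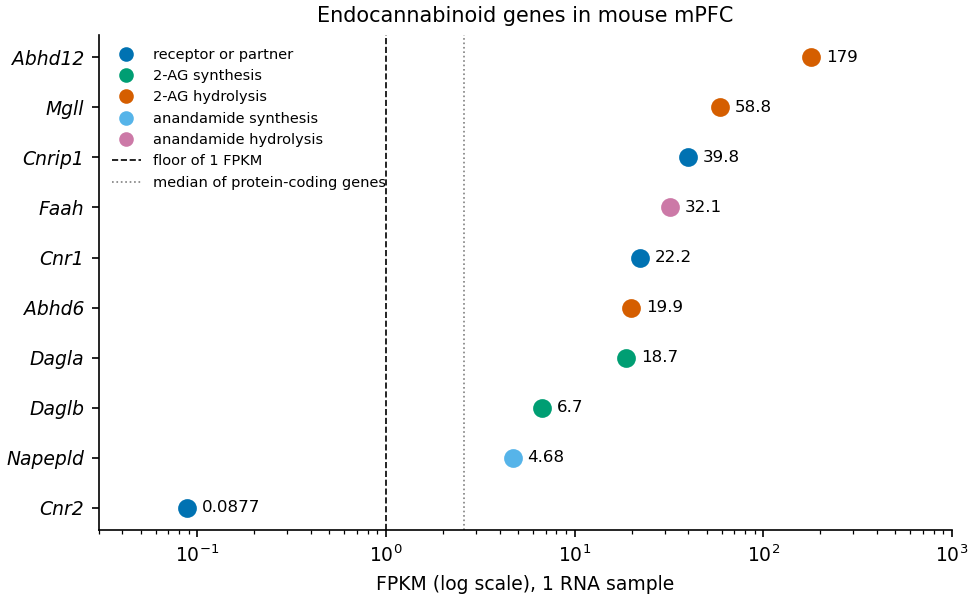
RNA level of each of the 10 genes in FPKM on a log axis, 1 point per gene from 1 RNA sample, coloured by role. The dashed line is the floor of 1 FPKM and the dotted line the median of protein-coding genes, 2.58 FPKM. Abhd12 at 179 FPKM stands to the right of all others and Cnr2 at 0.0877 FPKM is the only point left of the floor.

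The sequence before the start of each gene was read because the series is about DNA methylation, which in adult tissue falls mainly on CpG dinucleotides. RefSeq promoter windows (GRCm38.p6) matched 8 of the 10 genes with 13 windows; the others are Abhd12 and Dagla. The 4 sequences printed here are the 250 bases before the first transcript start that the promoter table lists for the gene, 5′ to 3′ on the + strand, with every CpG in capitals. The RefSeq span of a gene can begin further upstream, and the printed Cnr1 stretch and the Faah window lie inside the spans given for these genes below. Cnr1 (chr4:33924014-33924263) and Cnr2 (chr4:135894939-135895188) are shown as the receptors with the largest gap in level, Cnrip1 (chr11:17051609-17051858) as a well detected gene with few CpG, and Mgll (chr6:88724162-88724411) as a well detected gene with many.
Cnr1: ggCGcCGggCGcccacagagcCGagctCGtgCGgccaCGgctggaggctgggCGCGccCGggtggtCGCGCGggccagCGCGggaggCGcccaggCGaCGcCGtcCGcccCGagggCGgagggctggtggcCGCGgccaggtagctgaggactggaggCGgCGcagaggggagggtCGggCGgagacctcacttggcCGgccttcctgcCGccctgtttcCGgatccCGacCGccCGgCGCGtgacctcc
Cnr2: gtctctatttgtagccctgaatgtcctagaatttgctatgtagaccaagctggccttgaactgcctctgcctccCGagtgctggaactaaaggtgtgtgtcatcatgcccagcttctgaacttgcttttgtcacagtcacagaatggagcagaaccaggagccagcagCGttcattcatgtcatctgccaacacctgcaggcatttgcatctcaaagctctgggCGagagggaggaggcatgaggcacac
Cnrip1: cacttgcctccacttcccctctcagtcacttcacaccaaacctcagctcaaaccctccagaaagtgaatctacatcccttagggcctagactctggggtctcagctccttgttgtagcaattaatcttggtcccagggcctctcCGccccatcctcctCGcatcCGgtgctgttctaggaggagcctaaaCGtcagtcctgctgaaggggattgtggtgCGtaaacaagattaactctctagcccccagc
Mgll: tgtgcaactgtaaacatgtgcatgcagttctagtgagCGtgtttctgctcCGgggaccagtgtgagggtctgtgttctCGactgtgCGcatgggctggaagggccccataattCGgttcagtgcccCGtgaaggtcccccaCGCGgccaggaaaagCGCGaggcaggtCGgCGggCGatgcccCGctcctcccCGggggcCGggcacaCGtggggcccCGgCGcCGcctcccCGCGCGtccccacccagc

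The Cnr1 stretch holds 36 CpG and the Cnr2 stretch 3, against a median of 6 over the same 250 bases of 32851 windows. Of all windows 2.58% hold as many CpG as that of Cnr1, and 37.8% hold as few as that of Cnr2. Cnr1 has 3 listed starts. Its next window holds 28 CpG and its last, at chr4:33926130-33926379, only 5, and the RNA value is per gene, so the starts in use were not told apart. The Mgll stretch holds 23 CpG and its second window 40, the highest count among the members. The Cnrip1 stretch holds 5, which is below the median of all windows.

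A window was called CpG-rich when its CpG count was at least 0.6 times that expected from its C and G content and at least 50% of its bases were C or G. Of the 8 genes with a window, 4 had a CpG-rich one, namely Cnr1, Mgll, Abhd6 and Napepld, beside 45.9% of 16563 protein-coding genes. A share of 4 in 8 is near that background, so the members do not stand apart in CpG content. Daglb lay just under the limit, with an observed over expected ratio of 0.595 and 49.2% GC, and Faah had a ratio of 0.473. Over the whole window of 300 bases the Faah ratio was 0.645, so its class depends on the window. Among the 16563 protein-coding genes with a window, 87.6% of those with a CpG-rich one and 34.2% of the others were detected. The medians were 9.13 and 0.105 FPKM. Cnr2 sat in the middle of the genes that are not CpG-rich, at their 49.0th percentile. Cnrip1 and Faah had levels in the top of that group, at its 95.8th and 94.9th percentile. Napepld, with a ratio of 0.718, stood at 4.68 FPKM, below the median of CpG-rich genes. The motif GGGCGG, searched on both strands and overlapping CpG by its own letters, occurred in 5 of the 13 member windows and in 32.7% of all windows. Such counts describe the reference sequence, and methylation was not measured here.

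**Figure D2:**
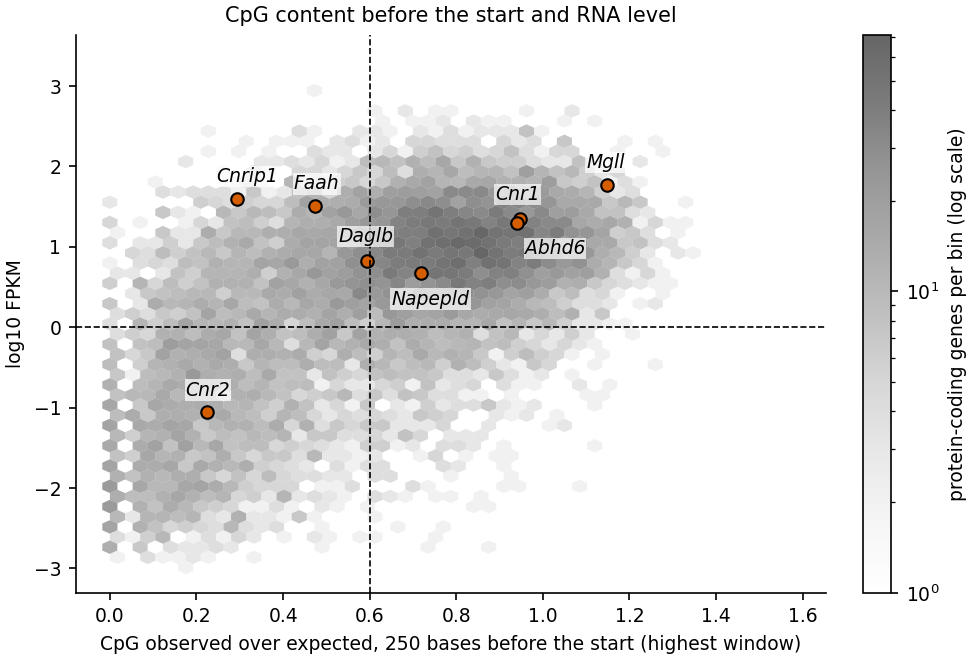
Ratio of observed to expected CpG in the 250 bases before the start (x axis, the highest window of each gene) and log10 of FPKM (y axis). Grey bins count protein-coding genes at or above 0.001 FPKM with a ratio of up to 1.6, and the 8 members with a window are named points; dashed lines mark the ratio of 0.6 and 1 FPKM. Cnr2 lies low on the left, Cnrip1 and Faah lie high to the left of the line at 0.6, and Mgll has the highest ratio of the members at 1.15.

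Cnr1 made up nearly all cannabinoid receptor RNA in this tissue. Cnr1 (ENSMUSG00000044288, chromosome 4, 33923171 to 33948831, GRCm38.p6) encodes CB1, the Gi/o-coupled receptor on axon terminals, and stood at 22.2 FPKM. Cnr2 (ENSMUSG00000062585, chromosome 4, 135895189 to 135920219) encodes CB2, known mainly from immune cells, and stood at 0.0877 FPKM. The ratio of both values was 253, and Cnr1 held 99.6% of their summed FPKM. On the log2(FPKM + 0.1) scale the difference was 6.89, and it depends on the pseudocount, because Cnr2 is below it. Cnr2 was not listed at 0, but the fragments behind so low a value are unknown. It is called not detected because it lies under the floor of 1 FPKM, and it is also under 0.1 FPKM. Whether the value is a low but real level was not tested.

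Markers of microglia, the resident immune cells of brain, were present beside the low Cnr2 value. All 7 microglia markers were detected, the lowest being Tmem119 at 7.66 FPKM, with a summed level of 177 FPKM. Of 6 lymphocyte markers none was detected, the highest being Cd4 at 0.978 FPKM. In bulk tissue fewer cells of a type and less RNA per cell cannot be told apart, here or for any gene below.

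Cnrip1, which encodes a protein that binds the carboxy-terminal tail of CB1, was 1.79-fold above Cnr1. It stood at 39.8 FPKM (ENSMUSG00000044629, chromosome 11, 17051859 to 17079372) and lay at the 91.4th percentile of protein-coding rows. Sgip1, another known partner of CB1, stood at 45.2 FPKM, close to Cnrip1.

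Among receptors of the same signalling class Cnr1 ranked high. With 21 other genes listed for Gi/o-coupled receptors or their subunits, Cnr1 ranked 4 of 22. Cnr1 came behind the GABA-B subunits Gabbr1 at 191 and Gabbr2 at 48.4 FPKM and the adenosine receptor Adora1 at 43.1 FPKM. The glutamate receptor gene Grm2 followed it at 17.8 FPKM, just below it. The median of the other 21 genes was 6.11 FPKM, 3.63-fold below Cnr1. The opioid receptor genes Oprm1 and Oprk1, whose products act by the same G proteins, stood at 0.976 and 0.791 FPKM. They were the 2 receptors of that list under the floor, while the related genes Oprd1 and Oprl1 were detected at 3.39 and 15.6 FPKM.

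Cnr1 is known to be most abundant per cell in interneurons that contain cholecystokinin, and it also occurs in pyramidal neurons. Cck itself stood at 300.8 FPKM and the GABA-synthesis genes Gad1 and Gad2 at 127 and 21.2 FPKM. Slc32a1, of the same marker list, was at 18.6 FPKM. The Cnr1 level was thus near those of Gad2 and Slc32a1 and far below those of Gad1 and Cck. Slc17a8, a vesicular glutamate transporter of a subset of these interneurons, was at 0.795 FPKM. Markers of excitatory cortical neurons were high, with 6 of 6 detected and Nrgn highest at 874 FPKM. Which of these cells gave the Cnr1 RNA or the Cck RNA was not tested.

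Other receptors that bind endocannabinoids or related lipids were mostly under the floor, and 2 of 7 were detected. The nuclear receptor gene Ppard was at 6.23 and Pparg at 1.48 FPKM, while Ppara, the target of palmitoylethanolamide, was at 0.725 FPKM. Gpr55 was at 0.265, the capsaicin receptor gene Trpv1 at 0.0310 and Gpr18 at 0.0205 FPKM, and Gpr119 was listed at 0. The list's median of 0.265 FPKM lay below that of all protein-coding rows, and the Cnr1 value was above each of the 7.

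Of both diacylglycerol lipases, which make 2-AG from diacylglycerol, Dagla was the higher. Dagla (ENSMUSG00000035735, chromosome 19, 10245265 to 10304877), the enzyme of synaptic 2-AG release in adult brain, stood at 18.7 FPKM. Daglb (ENSMUSG00000039206, chromosome 5, 143464484 to 143504442), known from microglia and macrophages as well as neurons, stood at 6.70 FPKM. Dagla was 2.79-fold higher, a difference of 1.47 on the log2(FPKM + 0.1) scale, and held 73.6% of the summed FPKM of the pair. Dagla and Cnr1, at the sending and receiving ends of the same retrograde signal, had close values of 18.7 and 22.2 FPKM.

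Genes that feed Dagla with diacylglycerol had a median of 19.1 FPKM, and 11 of 12 were detected. Grm5 and Chrm1, Gq-coupled receptors that trigger 2-AG release, stood at 22.3 and 39.4 FPKM, and Chrm3 at 15.9 FPKM. The G protein genes Gnaq and Gna11 were almost level at 29.7 and 29.7 FPKM. Of the phospholipase C genes Plcb1 was at 28.5 and Plcb4 at 13.2 FPKM, Plcb3 at 2.83 FPKM, and Plcb2, a form of blood cells, at 0.928 FPKM. Homer1, a scaffold that ties Grm5 to its partners, was at 30.8 FPKM and Homer2 at 5.20 FPKM. Dagla thus lay inside the range of its upstream genes and next to the list's median.

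The hydrolases that remove 2-AG differed widely, and Abhd12 was the highest. Abhd12 (ENSMUSG00000032046, chromosome 2, 150832493 to 150904779), a membrane hydrolase that is also the main lysophosphatidylserine lipase of brain, stood at 179 FPKM. Mgll (ENSMUSG00000033174, chromosome 6, 88724412 to 88828360), the monoacylglycerol lipase of axon terminals and astrocytes, stood at 58.8 FPKM. Abhd6 (ENSMUSG00000025277, chromosome 14, 8002888 to 8056773), a postsynaptic membrane enzyme, stood at 19.9 FPKM. Abhd12 was 3.04-fold above Mgll and 9.003-fold above Abhd6, and Mgll was 2.96-fold above Abhd6. Of the 258 FPKM that these 3 genes sum to, Abhd12 held 69.4%, Mgll 22.8% and Abhd6 7.71%. The Mgll protein is known to carry most 2-AG hydrolysis in brain membranes, and the order of RNA levels here is not an order of enzyme activity.

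Among 20 listed genes of the ABHD family, named for the alpha/beta hydrolase fold, Abhd12 ranked 1. Its level was 2.69-fold above Abhd8, the next gene at 66.6 FPKM, and 18.4-fold above the median of the other 19, which was 9.73 FPKM. Abhd6 ranked 6 of 20, between Abhd4 at 22.7 and Abhd3 at 18.4 FPKM, which differ from it by 1.14-fold and 1.08-fold. Abhd17a at 66.0 and Abhd16a at 44.2 FPKM lay between both members. Abhd15 at 0.185 and Abhd16b at 0.00766 FPKM were the 2 listed genes under the floor. Abhd12b, a paralog of Abhd12 that the list does not hold and that was added after its value was seen, stood at 0.158 FPKM.

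Abhd12 is known to be strongly expressed in microglia, and glial markers were measured beside it. The 7 microglia markers had a median of 18.0 FPKM and were all below Abhd12. The 6 oligodendrocyte markers had a median of 151 FPKM, from Mog at 30.8 to Mbp at 912 FPKM, and the 6 astrocyte markers a median of 48.6 FPKM, from Aqp4 at 14.6 to Slc1a2 at 184 FPKM. Their part in the levels of Abhd12 and Mgll was not tested.

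In the fixed pairs of a hydrolase with a synthesis enzyme, Mgll over Dagla and Faah over Napepld, the hydrolase was the higher. Mgll was 3.15-fold above Dagla. Faah (ENSMUSG00000034171, chromosome 4, 115996668 to 116018837), the membrane amidase that hydrolyses anandamide, stood at 32.1 FPKM. Napepld (ENSMUSG00000044968, chromosome 5, 21662901 to 21701622), a zinc hydrolase that releases anandamide from its phospholipid precursor, stood at 4.68 FPKM, 6.84-fold below Faah. Between the lipids, Mgll was 1.84-fold above Faah and Dagla 3.99-fold above Napepld.

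Napepld was exceeded by genes of the other routes to N-acylethanolamines. Abhd4, which removes the acyl chains of the precursor, stood at 22.7 FPKM, 4.84-fold above Napepld. Gde1, the phosphodiesterase that acts after Abhd4, stood at 122 FPKM, above Faah, and was the highest of 9 genes of this list. Plaat3, Plaat1 and Gdpd1 stood at 13.5, 11.0 and 12.9 FPKM, and Pla2g4e, the calcium-dependent N-acyltransferase that makes the precursor, at 2.51 FPKM. Ptpn22, Gdpd3 and Plaat5 were under the floor at 0.349, 0.204 and 0.0394 FPKM. In all 6 of 9 were detected, and Napepld lay below the list's median of 11.0 FPKM.

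On the degradation side Faah was 1.65-fold above Naaa, the lysosomal amidase that prefers palmitoylethanolamide, which stood at 19.4 FPKM. Ptgs2, the cyclooxygenase that can also oxidise endocannabinoids, was at 3.24 FPKM, and the lipoxygenase genes Alox12 and Alox15 were at 0.204 and 0.00145 FPKM. The lipid carriers linked to anandamide transport were all detected, with Scp2 at 65.3, Fabp5 at 43.5, Fabp3 at 36.6 and Fabp7 at 16.2 FPKM. Faah lay within their range.

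The genes listed for CB1 transduction include receptor kinases, arrestins and receptor partners as well as G proteins. They had a median of 44.4 FPKM, and 10 of 10 were detected. Gnao1, the Go subunit, was highest at 334 FPKM, followed by Grk2, a receptor kinase, at 140 FPKM. The Gi genes Gnai2, Gnai1 and Gnai3 stood at 73.1, 43.5 and 7.39 FPKM, and the arrestin genes Arrb1 and Arrb2 at 42.7 and 30.3 FPKM. Cnr1 was below 8 of these 10 genes, and only Grk3 at 15.7 FPKM and Gnai3 were lower.

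Genes listed for the metabolism of arachidonic acid, which Mgll and Faah release, had a median of 6.00 FPKM, and 6 of 7 were detected. Ptgds, a prostaglandin D synthase that is abundant in meninges and oligodendrocytes, was highest at 777 FPKM. Ptges3 and Ptges2 stood at 32.5 and 25.3 FPKM. Ptgs1 at 6.00, Ptges at 2.29, Pla2g4a at 1.26 and Alox5 at 0.436 FPKM were lower and, like Ptges2, below both Mgll and Faah.

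**Figure D3:**
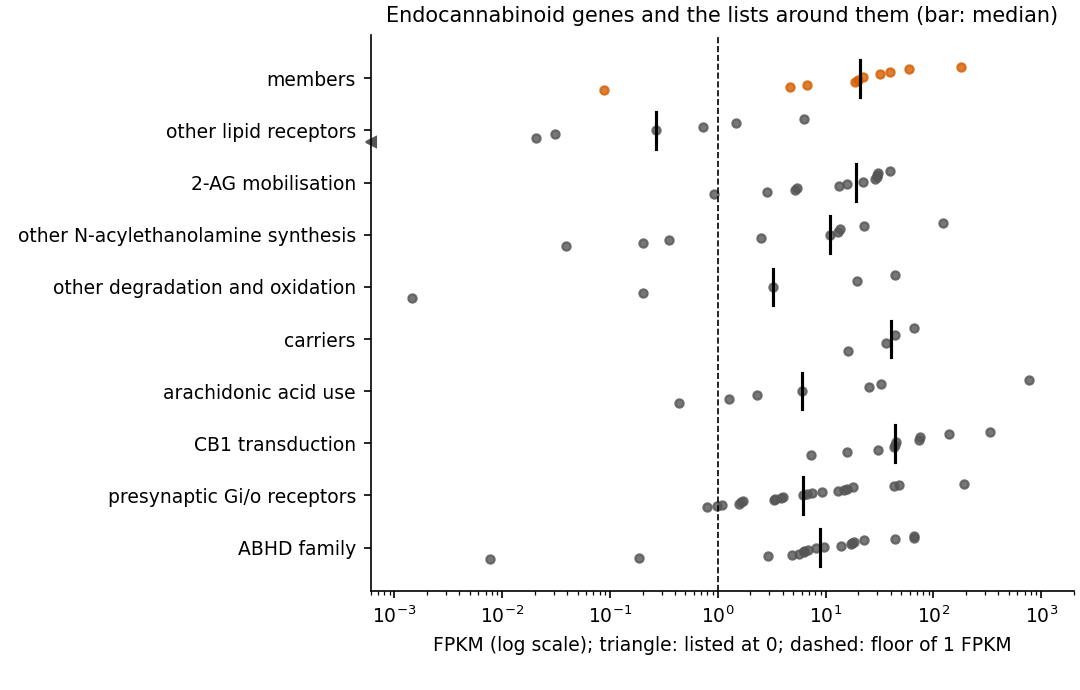
FPKM on a log axis for the 10 members (orange) and 9 lists of genes around them (grey), 1 point per gene from 1 RNA sample; a black bar is the list's median, a triangle a gene listed at 0 and the dashed line the floor of 1 FPKM. The members' median of 21.0 FPKM lies between those of the CB1 transduction list at 44.4 and the 2-AG mobilisation list at 19.1 FPKM, and the other lipid receptors lie lowest.

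Of the 12 fixed pairs of genes, 9 were at least 2-fold apart on the log2(FPKM + 0.1) scale. Of all pairs of protein-coding rows 79.7% are that far apart, and of all pairs of detected ones 69.5%, so the number of pairs apart is near the background and only the direction and size of each pair are described. The 3 pairs under 2-fold were Cnrip1 over Cnr1, Mgll over Faah and Faah over Naaa.

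**Figure D4:**
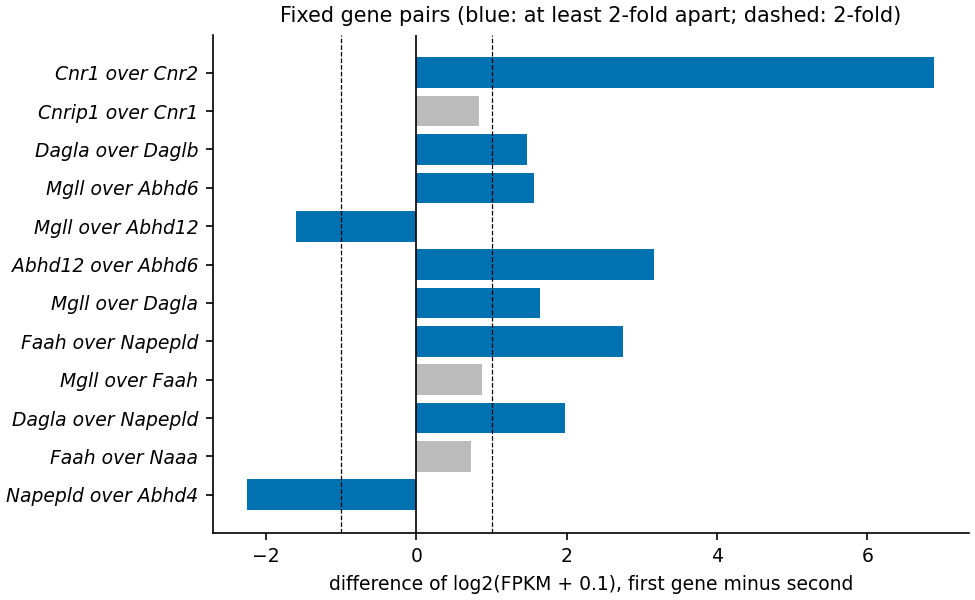
Difference of log2(FPKM + 0.1) between the first and the second gene of 12 fixed pairs, 1 bar per pair from 1 RNA sample; blue bars are at least 2-fold apart and dashed lines mark 2-fold. The bar of Cnr1 over Cnr2 is longest at 6.89, and Mgll over Abhd12 and Napepld over Abhd4 point to the left at -1.60 and -2.25.

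By position, 3 of the 10 genes lie on chromosome 4, namely Cnr1, Faah and Cnr2, and 2 on chromosome 5, Napepld and Daglb, while the other 5 lie on separate chromosomes. No member overlapped another protein-coding gene in RefSeq. Mgll overlaps the long non-coding gene Gm26588, which stood at 0.915 FPKM, and Napepld a pseudogene, Gm15719, at 0.0279 FPKM. Abhd12 overlaps Gm23598, which was listed at 0. Further overlapping genes had no matched RNA value, namely Gm30244 and Gm41094 at Abhd6, Gm30042 at Dagla and Gm51277 at Napepld. The closest protein-coding neighbours were Armc10, 201 bases from Napepld and at 7.30 FPKM, Fuca1, 506 bases from Cnr2 and at 30.8 FPKM, and Pygb, 744 bases from Abhd12 and at 49.1 FPKM. Fuca1 was high beside a gene that was not detected, and Abhd12 was above both of its neighbours within 5000 bases, Pygb and Gins1. Strand handling is not given in the sources used here, so reads of close or overlapping genes may not be fully told apart.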

How the data were processed

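RNA of 1 sample was used. The authors deposited FPKM values (fragments per kilobase of transcript and per library depth in mapped fragments) for 46073 Ensembl identifiers. Per the submitters' processing notes, reads were processed with CASAVA 1.8.2, TopHat and Cufflinks on mm10; how replicates were combined is not given in the sources used here, nor are the annotation release and the handling of strand. Symbols matched 45139 rows, with RefSeq GRCm38.p6 for class, coordinates and promoter windows; 3 listed genes were matched through RefSeq synonyms. A floor of 1 FPKM and a pseudocount of 0.1 were used, with no filter on low values and no test. Errors in the assumed transcript length enter every comparison between genes.

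Depth is unknown. In 100 short receptor genes above 0, FPKM times length less 204 bases repeated at 3.19, 5.00 and 5.66 (within 0.01%). These steps of unequal size were found in 17, 8 and 6 genes. Whether each step is 1 fragment in 1 of several averaged libraries was not tested. Values were therefore not turned into fragments, and no counting interval is given. Mitochondrial rows held 50.0% of summed FPKM. Scripts were tested on simulated data.

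The members, lists and pairs were chosen with earlier results of these data known. Named genes are the members, the genes of the pairs, the genes of the pathway lists and the highest and lowest of each marker list. Gad1, Gad2, Slc32a1 and the genomic neighbours were added after their values were seen. Some genes of these lists are not reported here by name, while counts and medians include them. The CpG limits were also set after the files were seen. The planned protein comparison was not run. Other floors, pseudocounts, scalings and windows were tried. The tools were pandas 2.3.3 and numpy 2.4.6 in Python 3.11.15, with matplotlib 3.10.9.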

Additional observations from a re-analysis of the deposited data

How the results depend on the processing

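The count of detected members was 9 at a floor of 0.1 FPKM and after rescaling to a fixed sum (TPM) over all rows or over rows that are not mitochondrial, and 8 at a floor of 5 FPKM, where Napepld also fell below. The count of detected genes over the 9 surrounding lists was 75 of 91 and ran from 59 to 85. The members' median of 21.0 FPKM was 15.2 as a geometric mean, which Cnr2 lowers, 22.2 FPKM over detected members only, and 53.4 after rescaling over rows that are not mitochondrial, which multiplies every gene alike. Of the fixed pairs 9 were apart with a pseudocount of 1 or 0.01, 8 of 11 with both genes detected, and 12 at a limit of 1.5-fold. All 24 pair differences under another pseudocount had the same direction, and that of Cnr1 over Cnr2 was 4.41 with a pseudocount of 1 and 7.83 with 0.01. CpG-rich windows, with limits added after the data were seen, were found for 3 members at a ratio of 0.75. Over the whole 300 bases they were found for 5, the added member being Faah. Against all rows Cnr2 moved from the 27.7th to the 54.7th percentile, since most rows are not protein-coding.

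No paired analysis was possible because there is 1 value per gene, and leaving out each library was not run for the same reason. With depth unknown, the low value of Cnr2 has no counting interval.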
